A study of Mus musculus with 6 samples.

Results

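T cells of the mouse spleen were described in an untreated spleen and in a spleen of a phenylhydrazine (PHZ) treated mouse, 1 tissue section each. A cell was counted as a T cell when it held at least 3 transcripts summed over Cd3d, Cd3e, Cd4 and Cd8a and fewer than 3 transcripts summed over C1qa, C1qb and C1qc. Cd3d and Cd3e encode chains of the CD3 complex that signals for the T cell receptor, Cd4 and Cd8a encode the coreceptors, and the C1q genes mark a class of macrophages. Cd3g was part of the intended gate but is not among the 477 panel genes. The gate took 20820 of 108338 cells in the untreated spleen and 3512 of 94582 in the PHZ spleen, that is 24332 of the 202920 spleen cells and of the 521938 cells in the 6 sections of the series. The members were therefore chosen by their measured counts, and the levels of the gate genes below describe the choice.

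The study mapped erythroid niches in mouse hematopoietic organs with Xenium, an imaging assay that detects single RNA molecules of a fixed gene panel in place on a tissue section and assigns them to segmented cells. Both spleens came from wild type mice bought from the Jackson laboratory, were fixed in formalin and embedded in paraffin, were cut at 5 µm and were run on the same slide with the same panel. The untreated spleen is labelled adult, the legends of the study give 2 months for both mice, and another of its sources gives 3 months for normal spleens. The PHZ mouse received 40 mg/kg PHZ into the peritoneum 2 times per day for 2 days before the spleen was taken. PHZ damages red cells and so causes hemolytic anemia. The methods of the study describe both normal spleens and spleens of control mice given a vehicle. The labels do not say which of these the untreated section was. With 1 section per condition, neither the spread between mice nor that between sections can be measured, so treatment, mouse and section cannot be told apart. No test was made, and every interval below is a 95% interval that covers counting error only.

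In the spleen, T cells gather in the white pulp, where they form sheaths around arterioles beside the B cell follicles, while the red pulp filters blood and holds macrophages that take up red cells. In mice the red pulp also makes red cells, and it does so more strongly during anemia. CD4 T cells help other immune cells and include regulatory T cells, which depend on the transcription factor FOXP3 and restrain immune responses, whereas CD8 T cells can kill infected or altered cells.

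T cells made up 19.2% of the cells in the untreated spleen (19.0 to 19.5) and 3.71% in the PHZ spleen (3.59 to 3.84). Per area of tissue, the T cell density was 4485 per mm2 in the untreated spleen and 495.5 per mm2 in the PHZ spleen, where all cells together stood at 23336 and 13345 per mm2. The share was thus lower in the PHZ spleen along with the density, over tissue areas of 4.643 and 7.088 mm2. A section samples a plane of the organ, so a smaller number of T cells in the whole spleen cannot be told apart from the same number in a larger organ. After each cell was thinned to 50 transcripts, the shares were 17.3% and 2.80%, against 20.4% and 3.55% of the same cells unthinned. The C1q limit left out 31.6% of the cells that passed the T gene minimum in the untreated spleen and 42.8% in the PHZ spleen.

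**Figure D1:**
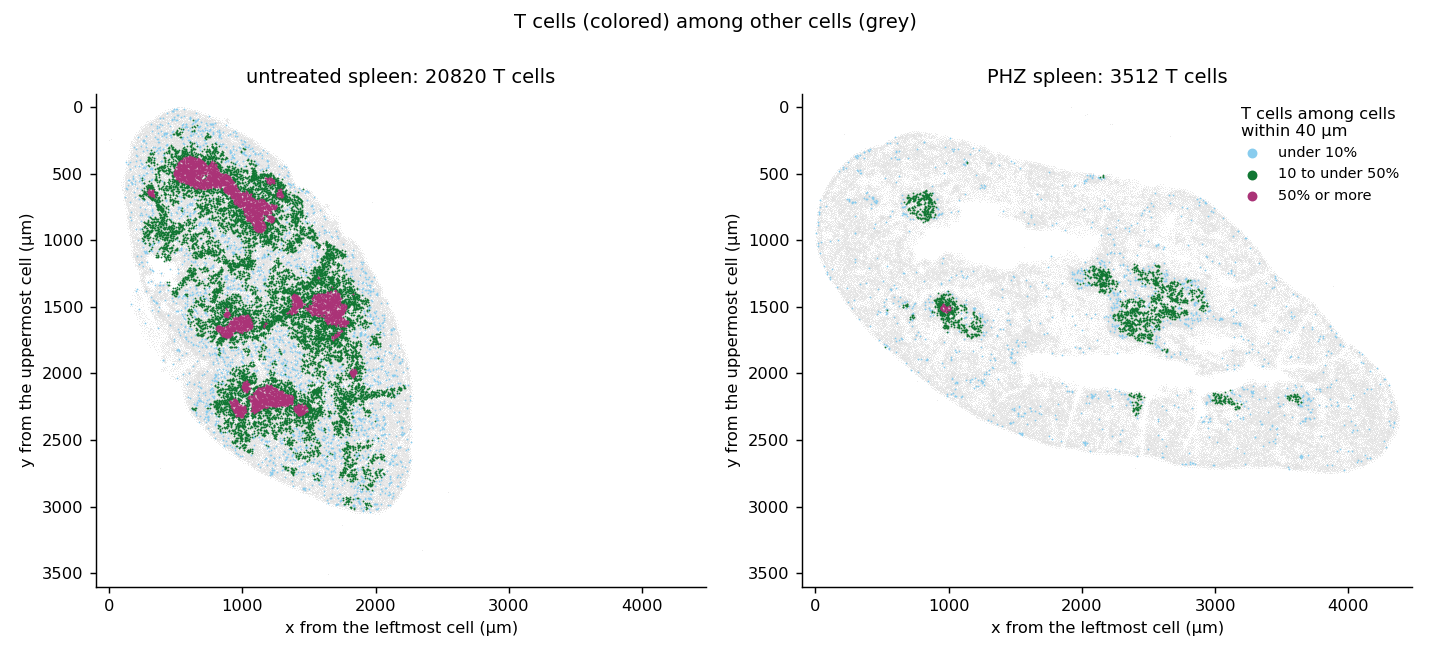
Positions of the T cells in the untreated and the PHZ spleen section, in µm from the leftmost and uppermost cell, colored by the share of T cells among the cells within 40 µm, with all other cells in gray. The untreated section holds 5984 T cells with at least 50% T cells around them and the PHZ section 49.

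The CD3 genes marked most members. Cd3e averaged 2.99 transcripts per T cell against 0.389 per other cell in the untreated spleen, and 2.39 against 0.0981 in the PHZ spleen. Cd3d averaged 1.62 and 1.18 per T cell, Cd4 1.68 and 1.23, and Cd8a 1.35 and 0.896. Of the T cells, 4.78% in the untreated and 3.64% in the PHZ spleen held neither Cd3d nor Cd3e and entered through the coreceptors alone. Cd4 is also transcribed by some macrophages and dendritic cells, and only 25.4% of the Cd4 transcripts of PHZ spleen cells lay in T cells, against 48.4% of Cd3e. Cells just outside the gate, with exactly 2 gate transcripts, numbered 6157 and 1706, and those just inside, with exactly 3, numbered 4002 and 980. Ms4a6b, a membrane protein gene with high levels in T cells, averaged 0.750 and 0.826 per cell at 2 gate transcripts and 1.03 and 1.23 at 3. The gate therefore drew a line through a continuous range.

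T cells held a median of 83 transcripts in the untreated and 72 in the PHZ spleen, beside 84 and 106 in the other cells. Their median segmented area was 33.2 µm2 and 36.1 µm2, whereas that of other cells was 36.4 µm2 and 54.0 µm2. Negative control probes gave 3.60 counts per 1000 T cells in the untreated spleen and 3.702 in the PHZ spleen. T cells held 1855249 transcripts in all in the untreated and 287931 in the PHZ spleen. Both spleens shared 1 cell identifier.

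CD4 T cells outnumbered CD8 T cells in both sections. In the untreated spleen 41.8% of T cells held Cd4 without Cd8a and 25.2% Cd8a without Cd4, and in the PHZ spleen the shares were 49.9% and 24.7%. The ratio of the former to the latter was 1.66 in the untreated spleen (1.60 to 1.72) and 2.02 in the PHZ spleen (1.86 to 2.19). The gate used both genes, and the intervals hold for these sections only. T cells with both coreceptors made up 23.4% and 9.91%, and those with neither 9.63% and 15.5%. Mature splenic T cells rarely carry both coreceptors, and transcripts of touching cells can be assigned to the same segmented cell. The part of this in the shares with both was not tested. When transcripts over the nucleus alone were counted, the share with both was 14.1% in the untreated and 5.89% in the PHZ spleen, and the ratio of CD4 to CD8 T cells 1.53 and 1.90.

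**Figure D2:**
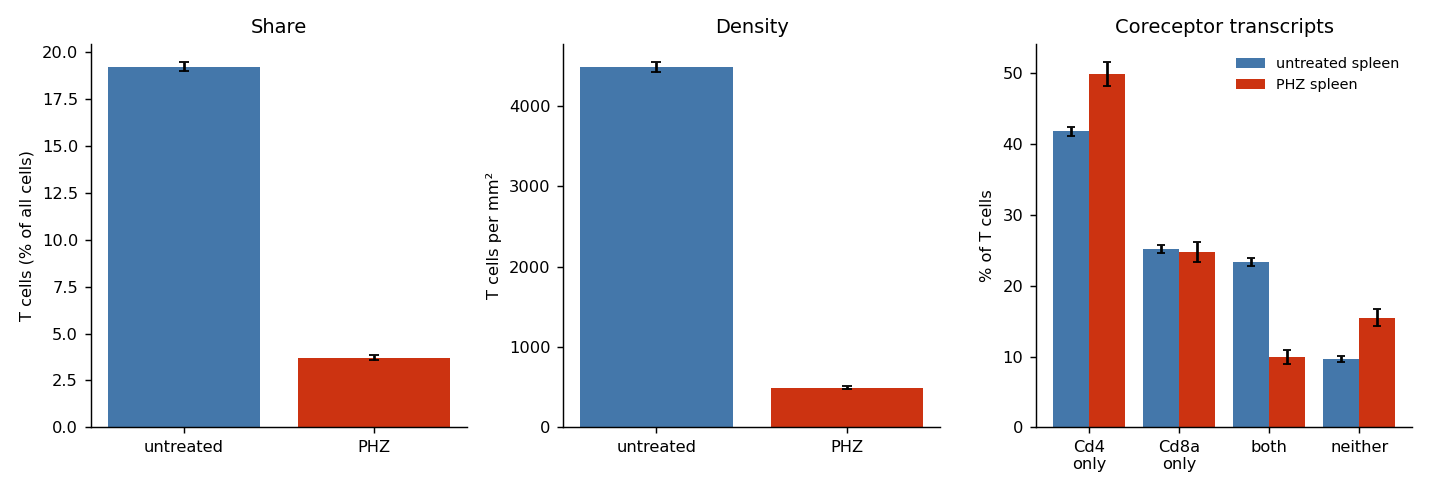
T cells as a percentage of all cells, T cells per mm2, and the percentage of T cells with Cd4 only, Cd8a only, both or neither, in the untreated and the PHZ spleen section, as bars from 0 with 95% counting intervals. The share was 19.2% and 3.71%, and Cd4 only was the most frequent class in both sections.

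The arrangement of T cells differed between the sections. In the untreated spleen T cells lay in dense fields, and in the PHZ spleen in loose patches and as scattered cells. Within 40 µm of a T cell there were on average 53.1 other T cells among 142.6 cells in the untreated spleen and 21.7 among 123.4 in the PHZ spleen. The median share of T cells around a T cell was 32.5% and 13.8%, whereas around other cells it was 11.2% and 1.08%. The distance to the nearest T cell had a median of 5.47 µm in the untreated and 6.65 µm in the PHZ spleen, and a 95th percentile of 14.3 µm and 45.8 µm. The whole range of shares around a T cell was lower in the PHZ spleen, with 5th and 95th percentiles of 6.62% and 73.5% in the untreated and 0% and 38.2% in the PHZ spleen.

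T-rich surroundings, with at least 50% T cells within 40 µm, held 28.7% of the T cells in the untreated spleen and 1.40% in the PHZ spleen. T-poor surroundings, with under 10%, held 10.7% and 36.6%. On a grid of 50 µm squares with at least 10 cells, 132 of 1755 squares had a T cell share of at least 50% in the untreated spleen and 1 of 2589 in the PHZ spleen, and 9.69% and 67.5% of squares held no T cell. The highest share in a square of the untreated spleen was 88.5%.

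T cells with at least 10% T cells around them were then linked within 40 µm into patches, and patches of at least 50 cells were kept. The untreated section gave 4 patches, the largest with 18045 T cells or 86.7% of the T cells in the section. The PHZ section gave 6 patches of 1005, 491, 277, 230, 91 and 57 T cells, which held 61.3% of its T cells. The T cell fields of the untreated section ran together under this rule, while those of the PHZ section stood apart. Linked instead through contacts, as defined below, the same T cells gave 25 groups of at least 50 cells in the untreated section. The largest held 3310 T cells or 15.9%. The PHZ section gave 3, the largest with 80 T cells or 2.28%. Under this linking the untreated fields did not run together. The 10% limit lay below the T cell share of the untreated section, 19.2%, and above that of the PHZ section, 3.71%. The part of T cell abundance in the merging was not tested.

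Touching cells were taken as neighbors in a Delaunay triangulation of the cell centers, and the contacts of T cells with each class were compared with the number expected if the classes were placed at random on the same cells. T cells touched other T cells 27674 times in the untreated spleen, where random placement gives 11999, and the log2 ratio was 1.21 (1.19 to 1.22). In the PHZ spleen 2464 such contacts stood beside an expectation of 390.9, which gives a log2 ratio of 2.65 (2.60 to 2.71). The ratio was larger in the PHZ spleen, where T cells were rarer and the expected number lower, but the number of T cell contacts per T cell was smaller, 1.40 (SD 1.39 over cells) against 2.66 (SD 1.84). T cells supplied 44.2% of the contacts of a T cell in the untreated and 23.4% in the PHZ spleen. T cells without any T cell contact made up 13.4% and 33.2%, and those with 6 or more 7.40% and 0.740%. When the random placement was confined to 200 µm tiles, so that the number of T cells in each tile was kept, the log2 ratios were 0.59 and 1.12. Fields smaller than a tile were not kept by this.

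Cells with at least 3 C1q transcripts, called C1q-positive cells here, touched T cells less often than random placement gives in both sections, with log2 ratios of −1.02 (22156 against 44924 contacts) in the untreated and −0.62 (4828 against 7401) in the PHZ spleen. Within tiles the ratios were −0.58 and −0.69. T cells had 1.06 C1q-positive contacts each in the untreated and 1.37 in the PHZ spleen. C1q-positive cells made up 36.0% and 35.1% of all cells in the sections. The rule itself kept cells with 3 or more C1q transcripts out of the T cells, and C1q transcripts per T cell went from 0.273 without a C1q-positive contact to 1.10 with 4 or more in the untreated and from 0.282 to 1.12 in the PHZ spleen, so these ratios draw on values the rule used and are a description.

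Erythroid cells, gated among the cells outside both former classes by at least 3 transcripts of erythroid genes such as Slc4a1 and Klf1, were 1.26% of the cells in the untreated spleen and 41.5% in the PHZ spleen. T cells touched them less often than random placement gives, with log2 ratios of −1.27 in the untreated and −1.90 in the PHZ spleen, and −0.37 in both within tiles. Cells that passed both the T cell and the erythroid gate were kept as T cells. Of the T cells, 1.55% in the untreated and 15.5% in the PHZ spleen held at least 3 erythroid gate transcripts. The erythroid ratios therefore depend on the rule and are a description. The remaining cells, which passed none of the gates and in which B cells could not be named since Ms4a1 and Cd79a are not on the panel, had a log2 ratio of −0.19 in the untreated and 1.21 in the PHZ spleen, and −0.21 and 0.18 within tiles. Each T cell touched 2.17 and 2.47 such cells. Neutrophil-gated cells, with at least 3 transcripts of S100a9, Csf3r and Ly6g, had log2 ratios of −0.74 and −0.55, and −0.18 and −0.12 within tiles.

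**Figure D3:**
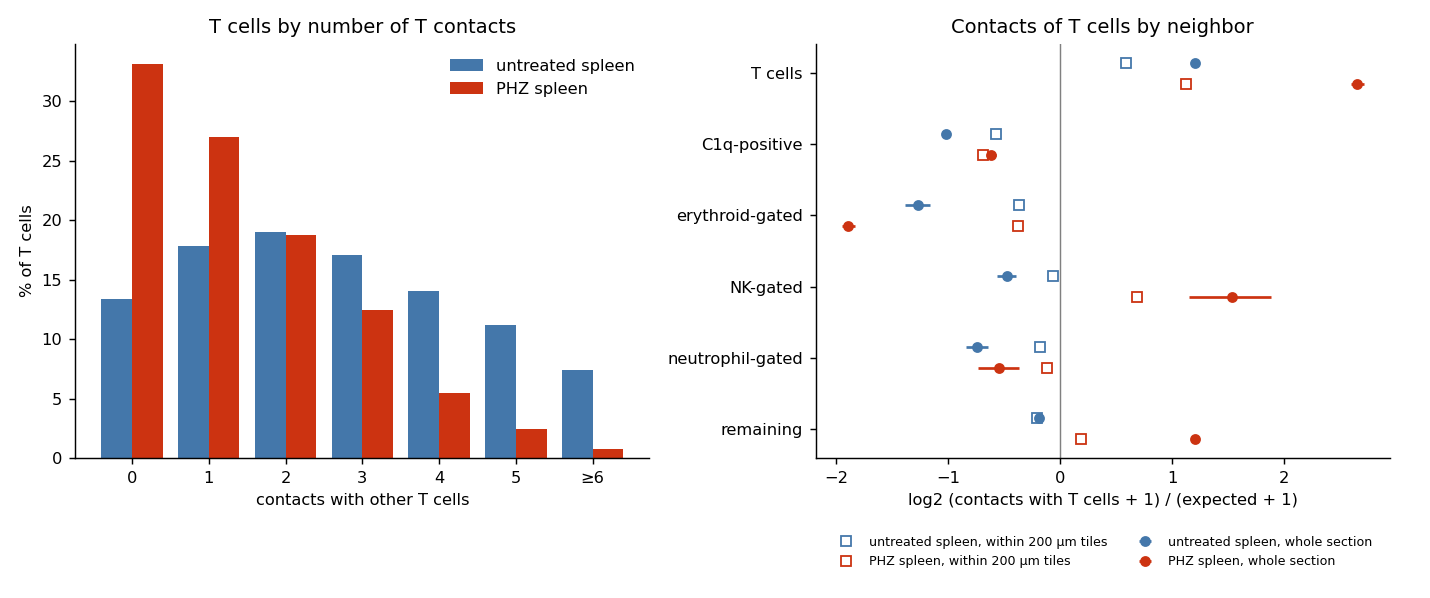
Percentage of T cells by their number of T cell contacts in each spleen section, and log2 of observed over expected contacts of T cells with each class of cells. Filled points are whole sections with 95% counting intervals and open squares are random placement within 200 µm tiles. Contacts between T cells are above 0 in both sections and both settings, at 1.21 and 2.65 for whole sections.

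Among T cells, cells of the same subset touched each other more often than expected. Cd4 and Cd8a were used by the rule, so the ratios of the subsets they define are a description. Contacts between cells with Cd4 only had log2 ratios of 0.14 and 0.28 in the untreated and the PHZ spleen, and those between cells with Cd8a only 0.33 and 0.74. Contacts between cells with Cd4 only and cells with Cd8a only lay below the number expected among T cell contacts, with log2 ratios of −0.76 in the untreated (3448 against 5833) and −0.83 in the PHZ spleen (341 against 608.5), and −0.50 and −0.70 with transcripts over the nucleus. A cell between a CD4 and a CD8 T cell can take up transcripts of both and so leave either class, and the part of this in the ratios was not tested. Contacts between cells with Foxp3 stood at log2 ratios of 1.27 (1140 against 470.8, 1.19 to 1.36) in the untreated and 1.05 (196 against 94.18, 0.84 to 1.25) in the PHZ spleen. With Foxp3 counted over the nucleus alone they stood at 1.25 and 0.99. T cells with Pdcd1, which encodes the inhibitory receptor PD-1, also touched each other more often than expected, with log2 ratios of 1.18 and 0.42. All these expected numbers place the subsets at random over the T cells of the whole section. Pdcd1 and Foxp3 differed between places, and Pdcd1 averaged 0.0860 per untreated T cell at over 0 and under 10% T cells within 40 µm and 0.288 at 25 to under 50%. The part of this, and of transcripts assigned to a neighboring cell, was not tested.

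The surroundings of a T cell went with what was counted in it. In the untreated spleen, gate transcripts per T cell went from 6.31 where over 0 and under 10% of the cells within 40 µm were T cells, to 7.31 at 25 to under 50% and 11.6 at 75% or more. The share with both coreceptors ran from 10.2% through 21.8% to 48.1% over the same ranges. In the PHZ spleen gate transcripts per T cell were 5.44 at 0%, 5.32 at over 0 and under 10%, 6.42 at 25 to under 50% and 7.96 at 50 to under 75%. Erythroid gate transcripts ran the other way, from 1.09 per T cell at 0% and 0.600 at over 0 and under 10% to 0.132 at 25 to under 50% in the untreated spleen, and from 8.84 and 5.01 to 0.203 in the PHZ spleen. The cells at 0% numbered 46 and 215. The gate transcripts and the coreceptors were used by the rule that also counts the T cells around a cell, so their course is a description. Erythroid transcripts in T cells thus differed with the surroundings. Several of the comparisons between sections below are therefore given also within a range of T cell share around the cell, and the others over all T cells only. Such a range matches the T cell share alone. At over 0 and under 10% a T cell had 0.134 erythroid-gated contacts in the untreated and 1.49 in the PHZ spleen. Ratios in T-poor surroundings therefore compare T cells with unlike neighbors.

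**Figure D4:**
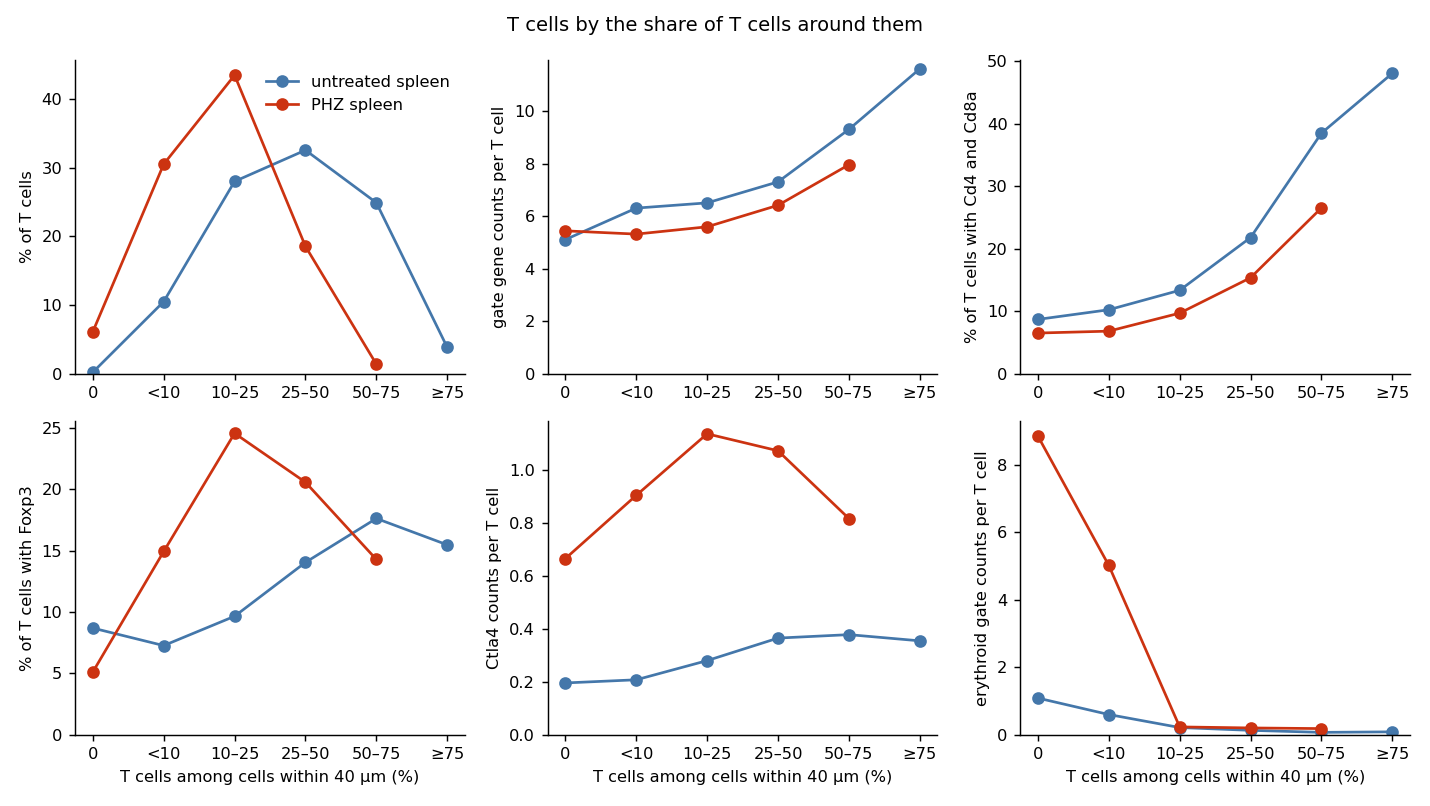
Values per T cell in the untreated and the PHZ spleen section by the share of T cells among the cells within 40 µm, including gate transcripts, the percentage with both coreceptors, the percentage with Foxp3, Ctla4 and erythroid gate transcripts per cell. Erythroid gate transcripts are highest where no other T cell lies within 40 µm, 8.84 per T cell in the PHZ spleen against 0.203 at 25 to under 50%.

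Against the other cells of the same section, T cells held 35 of 457 genes at a level at least 2-fold higher (7.66% of the genes compared) and 108 at least 2-fold lower (23.6%) in the untreated spleen. Levels here are CPM, the counts of a gene in all cells of a class scaled to the same total of transcripts, and genes with at least 100 counts in the section were compared, without the genes of the gate. In the PHZ spleen 226 of 451 genes were higher (50.1%) and 53 lower (11.8%), and as counts per cell 163 were higher (36.1%) and 94 lower (20.8%). Per cell the untreated spleen had 31 higher (6.78%) and 118 lower (25.8%). In the untreated spleen the median ratio over all genes was 0.993, and in the PHZ spleen it was 2.01, with the 13 genes of the erythroid list alone at 34.8 transcripts per other cell. The same cells' counts chose the T cells, so these ratios describe the cells taken.

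The 10 genes with the highest T cell levels relative to other cells included Pdcd1, Foxp3, Ikzf2, Ctla4 and Il2ra in both sections. In the untreated spleen the ratio was 8.00 for Pdcd1, 6.28 for Foxp3, 5.43 for Ikzf2 and 5.33 for Ctla4. Ikzf2 encodes HELIOS, a transcription factor of many regulatory T cells, and Ctla4 encodes an inhibitory receptor that competes with CD28 for its ligands. Sostdc1, which encodes a secreted antagonist of BMP and Wnt signals, stood at 6.49, Il2ra, the alpha chain of the interleukin-2 receptor, at 4.35, and Ms4a6b at 3.86. The other genes of the highest 10 were 6330403K07Rik at 4.03, Scg5 at 3.75 and Wnt3 at 3.69, each with under 0.04 transcripts per T cell. In the PHZ spleen the highest 10 were Pdcd1 at 21.4, Foxp3 at 18.7, Ikzf2 at 17.0, Sostdc1 at 16.2, Il2ra at 15.4, Ctla4 at 14.2, Tnfrsf18 at 12.8, Ms4a6b at 9.76, Ccl5 at 9.69 and Insm1 at 9.49. Tnfrsf18 encodes GITR, a costimulatory receptor abundant on regulatory T cells, and Ccl5 a chemokine of memory and cytotoxic T cells.

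By list, all 5 regulatory T cell genes were at least 2-fold higher in T cells of both sections, with a median ratio of 5.33 in the untreated and 15.4 in the PHZ spleen, and so were 5 and 14 of the 16 lymphocyte genes, beside 7.66% and 50.1% of all genes. Of 8 effector genes, 3 were higher in the untreated spleen (Ccl5 2.86, Ifng 2.73, Lag3 2.32) and 5 in the PHZ spleen, the latter near the share of all genes. The natural killer receptors Ncr1, Klrb1c and Klra8 had ratios of 0.509, 1.18 and 0.764 in the untreated and 3.87, 5.72 and 4.36 in the PHZ spleen, where NK-gated cells were 92 against 1354. Erythroid genes were lower in T cells, 9 of 13 in the untreated and 13 of 13 in the PHZ spleen, as were 7 of 12 macrophage genes in both and 6 and 4 of 6 endothelial genes, beside 23.6% and 11.8% of all genes. Transcripts of genes on the lists of these other cell types were still counted in T cells. The 13 erythroid genes summed to 1.44 per T cell against 3.78 per other cell in the untreated and 6.08 against 34.8 in the PHZ spleen, and every erythroid gene was above 0.

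Between the sections, the T cells of the PHZ spleen held 168 of 372 genes at a CPM level at least 1.5-fold higher (45.2%) and 44 at least 1.5-fold lower (11.8%), among genes with at least 100 counts in the T cells of both sections together. As counts per cell 157 were higher (42.2%) and 65 lower (17.5%). The median ratio over all genes was 1.33. Most of the higher genes were scarce: of the 210 genes with under 0.05 transcripts per untreated T cell 135 were higher and 14 lower, with a median of 2.07, and of the 162 genes above that level 33 were higher and 30 lower, with a median of 0.940. Among the scarce genes compared, a 1.5-fold higher level was therefore the common case. The untreated level that split the genes is also the denominator of the ratio. A gene with few untreated counts could also pass the minimum through its PHZ counts. Part of the difference between scarce and other genes was thus set in advance, and the split is a description.

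Of the 5 genes of the regulatory list 3 were at least 1.5-fold higher in T cells of the PHZ spleen, beside 45.2% of all genes, and as counts per cell 2 of 5 were, with Il2ra at 1.45. Ctla4 averaged 0.327 transcripts per T cell in the untreated and 1.02 in the PHZ spleen, a CPM ratio of 3.39 (3.253 to 3.529), against 1.27 in the other cells. Foxp3 averaged 0.248 and 0.386, a ratio of 1.69 (1.59 to 1.79). Il2ra averaged 0.273 and 0.395, a ratio of 1.57 (1.48 to 1.67). Tnfrsf18 averaged 0.261 and 0.341, a ratio of 1.42, and Ikzf2 averaged 0.649 and 0.468, a ratio of 0.783. In the other cells pooled, Foxp3, Il2ra and Tnfrsf18 had ratios of 0.569, 0.445 and 0.301. The makeup of that pool differed, since erythroid-gated cells were 1.26% of the untreated and 41.5% of the PHZ section. These pooled ratios therefore do not hold for each class of other cells. About 3 in 4 transcripts of these genes lay over the nucleus of the T cell in both sections, 76.5% and 77.4% for the list together, against 64.6% and 52.9% for the erythroid list.

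The share of T cells with a count was larger in the PHZ spleen for 4 of these genes and smaller for Ikzf2, at 31.9% in the untreated and 28.5% in the PHZ spleen, thinned 23.8% and 21.9%. Foxp3 was counted in 13.1% of T cells of the untreated spleen (12.6 to 13.5) and in 19.6% of the PHZ spleen (18.3 to 20.9), and after thinning to 50 transcripts in 9.55% and 16.3%. In erythroid-gated cells, which should lack Foxp3, it was counted in 1.40% and 0.354% of cells at median depths of 92 and 115 transcripts. The other classes held Foxp3 in 3.51% and 2.67% (C1q-positive), 2.62% and 4.37% (remaining), 1.699% and 3.261% (NK-gated) and 1.38% and 1.19% (neutrophil-gated) of cells. Ctla4 was counted in 18.7% of T cells in the untreated and 43.9% in the PHZ spleen, thinned 13.2% and 36.8%, beside 3.97% and 2.58% of erythroid-gated cells. In the other classes its share was larger in the PHZ spleen, with 3.84% and 11.6% of the remaining cells, 6.004% and 7.751% of C1q-positive cells, 2.22% and 6.27% of neutrophil-gated cells and 2.51% and 7.61% of NK-gated cells. Il2ra was counted in 14.9% and 21.1%, thinned 10.5% and 16.7%, and Tnfrsf18 in 21.2% and 25.9%, thinned 13.3% and 19.0%. The thinned shares rest on 18653 and 2834 T cells, since 2167 and 678 had fewer than 50 transcripts.

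Ctla4 was higher in the PHZ spleen in each subset of T cells examined. In T cells with Foxp3, 2716 and 687 cells, it averaged 1.12 transcripts in the untreated and 2.38 in the PHZ spleen. In T cells without Foxp3 it averaged 0.208 and 0.690. In cells with Cd4 only it averaged 0.451 and 1.36, and in cells with Cd8a only 0.116 and 0.386. Within a section, T cells with Foxp3 held Ctla4 at a CPM 4.86-fold that of T cells without it in the untreated and 3.49-fold in the PHZ spleen, Il2ra at 5.08-fold and 4.40-fold, Ikzf2 at 3.26-fold and 3.38-fold, and Tnfrsf18 at 2.14-fold and 2.31-fold. Ctla4 was thus higher in the PHZ spleen both in the cells with a Foxp3 count and in those without a count. Foxp3 was scarce, and a cell that expresses it can lack a count at this depth. The part of such cells in the values without Foxp3 was not tested.

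The position of the T cells moved with some of these values. In T cells of both sections that touched no erythroid-gated cell, 20295 and 2782, the ratio of the PHZ to the untreated spleen was 4.05 for Ctla4, 2.14 for Foxp3, 1.98 for Il2ra and 1.66 for Tnfrsf18, and 4 of the 5 regulatory genes passed 1.5-fold, beside 164 of 366 genes in all. In T cells with 25 to under 50% T cells within 40 µm, 6775 and 651, the ratio was 3.51 for Ctla4, 1.89 for Foxp3, 2.88 for Il2ra and 1.78 for Tnfrsf18, with 4 of 5 past 1.5-fold beside 47 of 224 genes in all. The count minimum left 224 genes here and 372 over all T cells, so both backgrounds cover unlike sets of genes. In T-poor surroundings, with 2233 and 1286 T cells, Ctla4 was at 4.10 and Foxp3 at 1.61 (1.38 to 1.87), while Il2ra at 1.003 (0.865 to 1.16) and Tnfrsf18 at 1.30 were within 1.5-fold. In T-rich surroundings, where the PHZ spleen had 49 T cells, Ctla4 was at 2.67, Il2ra at 1.38 and Foxp3 at 0.724, so the direction for Foxp3 turned in this small group. Counting transcripts over the nucleus alone gave 3.73 for Ctla4, 1.87 for Foxp3, 1.73 for Il2ra and 1.52 for Tnfrsf18. The selections without an erythroid-gated contact and with 25 to under 50% T cells were added after the values were seen.

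Of 4 genes of follicular helper T cells, which enter B cell follicles and help B cells, 1 was higher and 1 lower, beside 45.2% and 11.8% of all genes. Cxcr5, the receptor that guides cells into follicles and that B cells also carry, averaged 0.827 transcripts per T cell in the untreated and 0.390 in the PHZ spleen, a ratio of 0.513 (0.485 to 0.542), and in other cells it was 0.108. Pdcd1 averaged 0.215 and 0.307, a ratio of 1.56 (1.45 to 1.66), and was counted in 13.5% and 19.6% of T cells, thinned 9.21% and 14.7%. Maf, a transcription factor gene of helper T cells and macrophages, had a ratio of 0.965 and Il4 one of 0.820, the latter with 0.0343 and 0.0259 transcripts per T cell. The ratio of Cxcr5 was 0.435 in T-poor surroundings, 0.520 at 25 to under 50% T cells around the cell and 0.769 (0.439 to 1.25) in T-rich surroundings. That of Pdcd1 was 3.96 (3.33 to 4.72), 1.05 and 0.569 (0.155 to 1.46), the last from 4 counts in the PHZ spleen.

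Among effector genes, Ccl5 averaged 2.28 transcripts per T cell in the untreated and 1.34 in the PHZ spleen, a ratio of 0.636 (0.617 to 0.655). It was the 1 of 8 effector genes that was lower by 1.5-fold, and 3 were higher, both near the 11.8% and 45.2% of all genes. In cells with Cd8a only it averaged 2.85 and 1.94, and in cells with Cd4 only 1.43 and 0.917, so the order of the subsets was the same in both sections. The ratio of Ccl5 was 0.607 (0.574 to 0.641) in T-poor surroundings, 0.968 at 25 to under 50% T cells around the cell and 0.893 (0.736 to 1.07) in T-rich surroundings, and at 10 to under 25% it averaged 1.90 and 1.24 transcripts per T cell. Ccl3, Ccl4 and Il10 were the 3 higher genes, with ratios of 2.82, 2.23 and 1.97, each with under 0.08 transcripts per T cell and ratios of 3.07, 2.89 and 2.99 in other cells. Ifng, the gene of interferon gamma, averaged 0.0430 and 0.0439, a ratio of 1.11 (0.927 to 1.32). Lag3, an inhibitory receptor gene, averaged 0.264 and 0.310, a ratio of 1.28 over all T cells, and its ratio was 2.20 (1.90 to 2.55) in T-poor surroundings, 1.02 at 25 to under 50% and 0.797 (0.382 to 1.47) in T-rich surroundings. Slamf7 had a ratio of 0.697. Of the natural killer receptors, Ncr1 averaged 0.0675 and 0.0211, a ratio of 0.339, and was lower in other cells too, at 0.0447, while Klrb1c and Klra8 stood at 0.695 and 0.836. In T-poor surroundings the ratios were 0.213 for Ncr1, 0.444 (0.386 to 0.508) for Klrb1c and 0.293 (0.217 to 0.388) for Klra8, so all 3 were lower there. In the 49 T-rich cells of the PHZ spleen none of the 3 was counted. The upper limits of the ratio were 3.26 for Ncr1, 0.762 for Klrb1c and 1.51 for Klra8. At 25 to under 50% Klrb1c stood at 0.682 and Klra8 at 1.30 (0.940 to 1.76).

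None of the 16 lymphocyte genes was 1.5-fold higher and 1 was lower, beside 45.2% and 11.8% of all genes, with a median ratio of 0.810. As counts per cell 4 of the 16 were lower, beside 17.5% of all genes. By CPM the lower gene was Cd48, a ligand of the signaling lymphocyte receptor CD244, at 0.657, followed by Rac2, a GTPase of blood cells, at 0.676 and Satb1, a chromatin organizer of T cells, at 0.680. With transcripts over the nucleus alone none of the 16 passed 1.5-fold either way. In T-poor surroundings Cd48 was at 0.580 and Rac2 at 0.627. In T-rich surroundings, with 49 PHZ T cells, they were at 0.856 (0.659 to 1.09) and 0.970 (0.841 to 1.11). Satb1 averaged 1.63 transcripts per T cell in the untreated and 1.02 in the PHZ spleen, and its ratio was 0.627 (0.586 to 0.670) in T-poor surroundings, 0.984 at 25 to under 50% T cells around the cell and 0.831 (0.646 to 1.05) in T-rich surroundings. Ms4a6b averaged 2.07 and 1.77, a ratio of 0.929, and Emb 1.01 and 1.01, a ratio of 1.09. The highest of the list was Ly6a, which encodes the surface protein Sca-1, with 2.08 and 2.48 transcripts per T cell and a ratio of 1.29. Its ratio was 1.32 in T-poor and 1.51 (1.24 to 1.82) in T-rich surroundings. Other cells had a ratio of 0.444 for Ly6a.

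Of 8 interferon-induced genes 2 were at least 1.5-fold higher and none lower, beside 45.2% and 11.8% of all genes. Rsad2, which encodes the antiviral protein viperin, averaged 0.0590 transcripts per T cell in the untreated and 0.411 in the PHZ spleen, a ratio of 7.56 (7.001 to 8.164), beside 8.12 in other cells. Isg20, a nuclease gene, averaged 0.0496 and 0.132, a ratio of 2.89, beside 5.25 in other cells. The other 6 genes stayed within 1.5-fold, from Psmb8 at 0.810 and Epsti1 at 0.828 to Cxcl10 at 1.23. In the PHZ spleen Rsad2 averaged 1.17 transcripts in T cells with no other T cell within 40 µm, 0.742 at over 0 and under 10% and 0.0830 at 25 to under 50%. At the latter surroundings the ratio to the untreated spleen was 2.14 for Rsad2, 1.08 for Isg20 and 1.68 for Epsti1. In T-rich surroundings Rsad2 averaged 0.184 transcripts per T cell in the PHZ spleen, from 9 counts, and its ratio was 8.20 (3.68 to 15.9).

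All 4 cell cycle genes were at least 1.5-fold higher in T cells of the PHZ spleen by CPM, beside a background of 45.2%. As counts per cell 3 of the 4 were, beside 42.2% of all genes. Stmn1, a regulator of microtubules in dividing cells, averaged 0.666 and 1.06 transcripts per T cell, a ratio of 1.74, and Ube2c, Cenpf and Diaph3 had ratios of 2.61, 1.79 and 1.53. In other cells the ratios were 3.62, 9.76, 6.58 and 5.41. In T cells without an erythroid-gated contact none of the 4 passed 1.5-fold, with Stmn1 at 1.48, Ube2c at 1.28, Diaph3 at 0.947 and Cenpf at 0.886. The part of transcripts from erythroid cells in these values was not tested.

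The highest ratios of all were mostly those of erythroid genes. Rhd stood at 34.9, Plek2 at 28.2, Klf1 at 21.1, Hemgn at 20.3, Saa3 at 13.2, Slc4a1 at 11.4, Epor at 9.76 and Cxcl2 at 9.41. Rhd and Slc4a1 encode red cell membrane proteins, Klf1 is the master transcription factor of red cell maturation, Epor is the erythropoietin receptor, Saa3 is an acute phase protein and Cxcl2 attracts neutrophils. All 13 erythroid genes were higher, beside 45.2% of all genes, with a median ratio of 9.28, and Slc4a1 averaged 0.0799 and 0.840 transcripts per T cell. T cells that touched no erythroid-gated cell held 0.151 erythroid gate transcripts in the untreated and 0.251 in the PHZ spleen, and in the PHZ spleen the mean was 3.44 with 1 such contact, 7.0 with 2, 10.04 with 3 and 13.5 with 4 or more. Without such contacts 9 of the 13 erythroid genes were higher, with a median of 1.72, beside 164 of 366 genes in all.

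The lowest ratios included those of 3 macrophage genes. Timd4, a receptor for dying cells, stood at 0.120, Prox1 at 0.131, Siglec1, a gene of some macrophages, at 0.157, Coch at 0.179, Cavin2 at 0.217, Bmp2 at 0.219, AU021092 at 0.255 and Adgre1, which encodes F4/80, at 0.319. Coch averaged 0.539 transcripts per T cell in the untreated and 0.0886 in the PHZ spleen. The ratios in other cells ran from 0.0797 for Coch to 0.293 for Siglec1, so these 8 genes were lower there also. Of the 12 macrophage genes compared 5 were lower and none higher, beside 11.8% lower and 45.2% higher over all genes. At 25 to under 50% T cells around the cell 5 of 11 were lower and none higher, beside 53 and 47 of 224 genes. In T-rich surroundings, with 49 PHZ T cells, 3 of 9 were lower and 3 higher, beside 68 and 35 of 191. There Spic stood at 2.29 (1.30 to 3.73) and Slc40a1 at 2.09 (1.07 to 3.67). The genes of other cell types with the most counts in T cells of the untreated spleen were Ctss, a lysosomal protease of antigen presenting cells, with 4.10 transcripts per T cell in the untreated and 3.004 in the PHZ spleen, Selenop, a selenium transport protein of macrophages, with 1.62 and 1.13, and Cybb, a subunit of the phagocyte oxidase, with 1.34 and 0.881. Their ratios were 0.796, 0.761 and 0.714, beside 0.401, 0.569 and 0.267 in other cells. Of the 6 stromal genes 5 were higher, with Col1a1 at 4.64, Col1a2 at 2.06 and Bgn at 1.62, beside 2.80, 1.15 and 0.769 in other cells. At 25 to under 50% T cells around the cell 1 of the 6 stromal genes was higher and 1 lower, beside 47 and 53 of 224 genes in all. In T-rich surroundings 1 was higher and 3 lower, beside 35 and 68 of 191, with Bgn at 0.293 and Col1a2 at 0.375 from 6 and 5 counts in the PHZ spleen. The PHZ spleen had 49 T cells in these surroundings, so a scarce gene could be called lower there without any PHZ count. Of 8 neutrophil genes 4 were higher, near the 45.2% of all genes, with Mpo at 6.14 and Elane at 5.76. Without an erythroid-gated contact 2 of the 8 were higher and 2 lower, beside 164 and 53 of 366 genes. At 25 to under 50% T cells around the cell 1 of 6 was higher and 3 lower, beside 47 and 53 of 224. The part of transcripts from neighboring cells in each of these values was not tested.

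**Figure D5:**
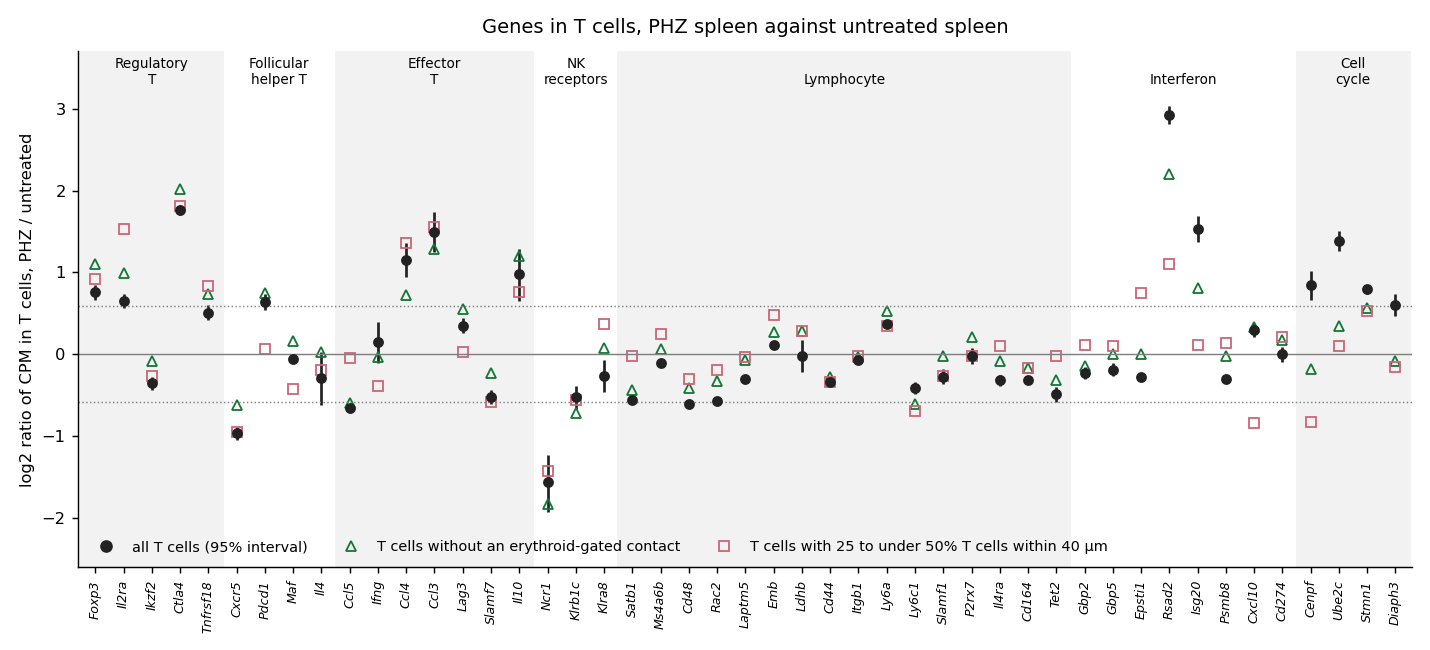
Log2 ratio of CPM in T cells of the PHZ over the untreated spleen section for genes of the T cell, natural killer, lymphocyte, interferon and cell cycle lists. Circles are all T cells with 95% counting intervals, triangles T cells without an erythroid-gated contact, squares T cells with 25 to under 50% T cells within 40 µm, and dotted lines mark 1.5-fold. Ctla4 is above the upper line in all 3 sets, at ratios of 3.39, 4.05 and 3.51.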

How the data were processed

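The authors imaged the sections with Xenium (Xenium Onboard Analysis, software xenium-1.7.1.0 per the file headers, with cells segmented by expansion of the nucleus) and deposited transcript counts per cell and gene, cell positions and areas, and a quality score for each transcript. Counts hold transcripts with a score of at least 20. No aligner applies, and the study's methods name Space Ranger for this step. Here cells were gated as described, with no further filter, and doublets were not called. The members and gene lists were chosen with earlier results of these data known. Counts were summed per class and section and set against each other as CPM or per cell with exact binomial, Poisson and conditional binomial 95% intervals, in Python 3.11.15, numpy 2.4.6, scipy 1.17.1 and pandas 2.3.3. Contacts were Delaunay edges of at most 400 µm, with log2((observed + 1)/(expected + 1)). Counts over the nucleus came from the deposited transcript tables. The computation was tested on simulated data. Each erythroid, NK or neutrophil class needed at least 3 counts of its genes and left out T cells and C1q-positive cells.

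Genes were named by a rule: the gate genes, the T cell, natural killer, lymphocyte, interferon and cell cycle lists where they passed the count minimum, the 10 highest ratios against other cells, the 8 highest and 8 lowest between sections, and the 3 most counted genes of other cell types. Some genes of these lists are not reported here. Genes named beyond it were chosen after their values were seen. Alternatives were another gate minimum, another gate, no C1q limit, counts over the nucleus, deeper cells, other scaling, another gene minimum, ranges of T cell share around the cell and other contact rules.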

Additional observations from a re-analysis of the deposited data

Results flagged for a closer look

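Some values pointed in opposite directions in the 2 spleens, with 1 section each, and the differences were not tested. Contacts of T cells with NK-gated cells, which held at least 3 transcripts of Ncr1, Klrb1c and Klra8, stood at a log2 ratio of −0.48 in the untreated and 1.53 in the PHZ spleen, where there were 92 such cells and 61 contacts. Within 200 µm tiles the ratios were −0.07 and 0.68. Contacts with the remaining cells stood at −0.19 and 1.21, and within tiles at −0.21 and 0.18. Against the other cells of the section, 9 genes, among them Car3, Pck1 and Retn, which are known from fat cells, were at least 2-fold lower in T cells of the untreated and at least 2-fold higher in those of the PHZ spleen by CPM, where 50.1% of all genes were at least 2-fold higher. As counts per cell Car3, Pck1 and Retn were at least 2-fold higher in the PHZ spleen, at 2.24, 2.08 and 3.21, and the other 6 lay between 1.57 and 1.98. The ratios in the untreated and the PHZ spleen were 0.326 and 2.87 for Aqp7, 0.165 and 3.35 for Car3, and 0.316 and 2.95 for Lum. They were 0.479 and 2.66 for Mfap5, 0.465 and 2.64 for Nnat, and 0.188 and 3.11 for Pck1. They were 0.208 and 4.80 for Retn, 0.314 and 2.75 for Retnla, and 0.491 and 2.35 for Sox17. All 9 were scarce, with at most 0.0282 transcripts per T cell in either section (Car3 in the untreated spleen).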

How the results depend on the processing

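No paired analysis was possible because each condition has 1 section. The share of T cells was 12.9% in the untreated and 1.92% in the PHZ spleen with at least 5 gate transcripts, 18.5% and 3.93% with at least 2 of Cd3d and Cd3e, 18.0% and 3.42% with the gate over the nucleus, 28.1% and 6.49% with no C1q limit, and 17.3% and 2.80% thinned. The log2 ratio of T cell contacts was, in the same order for the first 4, 1.496 and 2.887, 1.23 and 2.59, 1.09 and 2.37, 0.82 and 2.18, and within tiles 0.59 and 1.12. A minimum of 20 transcripts per cell or a contact limit of 30 µm moved neither beyond its counting interval. Genes lower in T cells than in other cells of the PHZ spleen numbered 53 by CPM and 94 per cell. Genes higher in T cells of the PHZ than of the untreated spleen numbered 168 of 372 in all T cells, 47 of 224 at 25 to under 50% T cells around the cell, and 35 of 191 in T-rich surroundings. In the latter 68 were lower, beside 44 in all T cells. Genes passed the minimum mostly through the untreated T cells, 6775 at 25 to under 50% and 5984 in T-rich surroundings. With 49 PHZ T cells a scarce gene could be called lower without any PHZ count, such as Il4 with 145 and 0 counts (0 to 3.85). The numbers in T-rich surroundings therefore show no shift of genes. Among the list genes of T and natural killer cells, interferon and cell cycle past 1.5-fold in all T cells, the direction turned in T-rich surroundings, with 49 PHZ T cells, for Ccl4 (0.911), Cenpf (0.852), Diaph3 (0.995), Foxp3 (0.724), Isg20 (0.692), Pdcd1 (0.569), Stmn1 (0.866) and Ube2c (0.256), each with a counting interval that includes 1, without erythroid-gated contacts for Cenpf (0.886) and Diaph3 (0.947), and at 25 to under 50% for Cenpf (0.565) and Diaph3 (0.900). Genes within 1.5-fold in all T cells moved with the surroundings too, and examples are Lag3, from 1.28 to 2.20 in T-poor surroundings, Klra8, from 0.836 to 0.293, and Cd274, from 1.004 to 1.71 in T-rich surroundings. Epsti1 went from 0.828 to 1.68 at 25 to under 50% and 1.34 in T-rich surroundings, and Psmb8 from 0.810 to 1.10 and 1.25. Outside these lists Bgn, Col1a2 and Col1a1 also turned in T-rich surroundings, to 0.293, 0.375 and 0.887. The causes were not tested. The other 62 values of the main comparisons under alternatives stayed within their counting interval or within 1.5 times the count. With no second section per condition, no value has a measure of spread between mice.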

Other observations

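Within the untreated spleen, T cells in T-rich and T-poor surroundings differed in genes outside the lists, which were chosen after their values were seen. By CPM, Insm1 was 45.0 times, Asprv1 20.8 times, Serpina3n 16.1 times and Thbs4 8.53 times as high in T-rich as in T-poor surroundings. The first 2 ratios rest on 7 (21.75 to 112.4) and 16 (12.71 to 36.52) counts in T-poor surroundings. The part of transcripts from neighboring cells in the values of this paragraph was not tested. Cxcl16, a chemokine of antigen presenting cells, was 3.73 times as high and Lag3 2.39 times. In the PHZ spleen, where 49 T cells were in T-rich surroundings, Cxcl16 was at 4.98, Lag3, from 10 counts, at 0.865 (0.411 to 1.61) and Serpina3n, from 4 counts, at 0.289 (0.0783 to 0.744). Cavin2 and S100a9 stood at 0.0152 and 0.0333 in the untreated spleen.

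T cells with Foxp3 in the untreated spleen also held Areg, the gene of the growth factor amphiregulin, at 5.08 times and Il1r2, a decoy receptor for interleukin-1, at 4.14 times the CPM of T cells without Foxp3. Between cells with Cd8a only and Cd4 only, Ly6c1 stood at 2.34 in the untreated and 2.28 in the PHZ spleen, Ccl5 at 2.07 and 1.78, Pdcd1 at 0.138 and 0.285 and Foxp3 at 0.287 and 0.207.

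T cells with at least 10% T cells around them were also linked through contacts instead of within 40 µm. This gave 25 groups of at least 50 T cells in the untreated spleen. The group with the highest Cxcr5, Pdcd1 and Ctla4 levels among the 25 was picked after the values were seen. Its 70 T cells spanned 92.1 by 106.2 µm and held 2.73 Cxcr5, 1.06 Pdcd1 and 0.871 Ctla4 transcripts per cell. Of these cells 77.1% held Cd4 only and 1.43% Cd8a only. Over all T cells of the section Cxcr5 was at 0.827 and Pdcd1 at 0.215. In the patches linked within 40 µm, Ctla4 averaged 1.03 to 1.19 transcripts per T cell in the 6 of the PHZ spleen. In the 4 of the untreated spleen it averaged 0.167 to 0.347. The share of T cells with Foxp3 ran from 5.26% to 28.6% in the former and from 5.39% to 13.9% in the latter. Patches are parts of 1 section and not replicates, and 1 untreated patch held 18045 T cells. Linked through contacts, T cells in T-rich surroundings of the untreated spleen gave 10 groups of at least 50 cells. The share of T cells with Foxp3 ran from 10.8% to 23.2% over these groups. The highest share was that of the smallest group, with 56 T cells.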
